A study of Mus musculus with 4 samples.

Results

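Osteopontin, the product of Spp1, and 6 genes that mark lipid-associated macrophages (Gpnmb, Trem2, Lgals3, Cd9, Fabp5 and Mmp12) were followed through single cells of dystrophic mouse muscle. The 7 genes were taken by symbol from the 32285 mouse genes of the deposited count tables, and all 7 were found. The muscle came from a mouse model of Duchenne muscular dystrophy, an inherited loss of the muscle protein dystrophin, after LNP-CRISPR (CRISPR components carried by lipid nanoparticles) or after vehicle. Muscle cells were taken in bulk or passed through a satellite cell isolation kit, meant to enrich muscle stem cells. A single library stood for each of LNP-CRISPR bulk, vehicle bulk, LNP-CRISPR kit and vehicle kit, with 1149, 1199, 1899 and 1404 cells kept. The allele of the model, which both treatments share, the age and number of the animals, the dose and the time after treatment are not given in the sources used here.

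Osteopontin is a secreted phosphoprotein that binds integrins and CD44, and in dystrophic mice it has been linked to inflammation and fibrosis of muscle. Lipid-associated macrophages, first described in fat tissue, take up lipid and cell debris through receptors such as Trem2, which signals through the adaptor Tyrobp. Their typical genes are thought of as a set, but several are also used by cells outside the immune system, so each gene was followed across all cell classes.

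Values are counts of unique molecular identifiers (UMIs, 1 for each captured RNA molecule), added up within a cell class and given per 1000000 UMIs of nuclear-encoded genes (CPM), with exact 95% intervals in brackets. These are counts of 3′ ends without a correction for length, so levels are compared between classes and libraries of the same gene only, and genes named from a list for their UMI count are not ranked by expression. With 1 library per group no test was possible, the intervals cover counting error only, and a difference cannot be told apart from one between animals or preparations. Ratios are LNP-CRISPR over vehicle, read against a 2-fold limit. The bulk libraries held 25921795 and 33801488 UMIs (LNP-CRISPR and vehicle) and the kit libraries 40666916 and 28597422, with 0 to 3 cell barcodes shared by any pair of libraries. Classes were built without the 7 genes, and "-like" marks a class named from its marker genes. All 9 macrophage markers were detected in macrophage- or monocyte-like cells of both bulk libraries (summed level 14869 and 16636 CPM), but kit cells of the compared classes held at most 0.993 CPM of them, so macrophage values come from the bulk libraries.

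The genes lie on 6 chromosomes of the GRCm38 (mm10) assembly: Fabp5 on chromosome 3 (10012548 to 10016607), Spp1 on chromosome 5 (104435118 to 104441050), Gpnmb on chromosome 6 (49036546 to 49070929), Cd9 also on chromosome 6 but on the reverse strand (125460266 to 125494791), Mmp12 on chromosome 9 (7344381 to 7369499), Lgals3 on chromosome 14 (47367751 to 47386160) and Trem2 on chromosome 17 (48346401 to 48354147). All are protein-coding, and 6 of the 7 had a RefSeq promoter. The 250 bases before the start are shown for Spp1 (first of 2 starts) and Mmp12 (first of 2 starts), which were both over 2-fold higher in macrophage-like cells of LNP-CRISPR muscle, and for Trem2, the gene most closely held to those cells. They are printed 5′ to 3′ on the forward strand of RefSeq's GRCm38.p6, and capitals mark the motifs found by the search described next.
Spp1, chr5:104434861-104435110: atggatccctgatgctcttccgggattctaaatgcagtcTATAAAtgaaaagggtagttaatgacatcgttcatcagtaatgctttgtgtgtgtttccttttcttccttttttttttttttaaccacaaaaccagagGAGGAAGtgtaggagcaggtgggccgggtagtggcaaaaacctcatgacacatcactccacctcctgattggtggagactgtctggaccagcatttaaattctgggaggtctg
Mmp12, chr9:7344147-7344396: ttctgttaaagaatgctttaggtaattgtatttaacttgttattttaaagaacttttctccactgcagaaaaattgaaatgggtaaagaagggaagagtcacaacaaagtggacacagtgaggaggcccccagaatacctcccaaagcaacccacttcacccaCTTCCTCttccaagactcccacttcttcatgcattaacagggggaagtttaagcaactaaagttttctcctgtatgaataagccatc
Trem2, chr17:48346151-48346400: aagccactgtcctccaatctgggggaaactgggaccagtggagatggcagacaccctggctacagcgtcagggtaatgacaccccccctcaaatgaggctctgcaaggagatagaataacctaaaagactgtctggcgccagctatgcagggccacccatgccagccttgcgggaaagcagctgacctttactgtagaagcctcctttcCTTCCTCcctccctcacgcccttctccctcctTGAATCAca

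The search covered both strands for 5 motifs, and no match overlapped another. The motif GAGGAAG is a purine box of the type bound by PU.1, a factor of myeloid cells, and TGANTCA is the AP-1 site. The E-box CACGTG and its variant CATGTG are of the types bound by factors such as MITF, and TATAAA is the core of a typical start box. The purine box was found in all 3 printed windows, which were picked by expression. It started 113 bases before the Spp1 start, and on the reverse strand 87 bases before the Mmp12 start and 41 before the Trem2 start. No other window of the 7 genes held it. It occurs in 10.6% of all 32851 RefSeq promoter windows of this length. Spp1 also held TATAAA at 211 bases before the start (12.4% of windows), and Trem2 held TGAATCA at 9 bases (AP-1, 6.75% of windows). The windows of Gpnmb, of Lgals3 and of the second Spp1 start held none of the 5 motifs. Those of Cd9 and of the second Mmp12 start held other motifs.

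In macrophage- or monocyte-like cells, osteopontin RNA was several times more abundant after LNP-CRISPR, and so was RNA of the elastase Mmp12, while Trem2, Gpnmb, Lgals3 and Fabp5 were close to their vehicle level. Of the 7 genes 2 were at least 2-fold higher and 0 at least 2-fold lower, among 180 LNP-CRISPR and 202 vehicle cells. Over all 9408 genes with at least 20 UMIs there, 1.86% were at least 2-fold higher and 2.16% at least 2-fold lower. The median log2 ratio was 0.22 for the 7 genes and -0.04 for all tested genes. In these cells markers of red blood cells summed to 56.4 and 3.08 CPM (LNP-CRISPR and vehicle, 3 of 5 detected in each) and those of neutrophils to 380.2 and 261 CPM (7 of 8 in each, Ly6g at 0), and their part in the results was not tested.

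Spp1 stood at 4789 CPM (4709–4869) in macrophage-like cells of LNP-CRISPR muscle and at 1269 CPM (1228–1311) in those of vehicle muscle. The ratio was 3.77 (3.64–3.91). Cells with Spp1 were also more frequent: 44.4% of LNP-CRISPR and 31.2% of vehicle macrophage-like cells had at least 4 Spp1 UMIs at median depths of 15342 and 14160.5 UMIs. After thinning each cell to 1000 UMIs, 33.5% and 24.4% still had a Spp1 UMI, against 0% and 0% of pericyte- or smooth muscle-like cells of the same libraries.

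The Spp1 RNA was unevenly spread. A pair of LNP-CRISPR cells with 3129 and 2899 UMIs held 43.5% of the 13843 Spp1 UMIs of the class, and the 2 highest vehicle cells (488 and 344 UMIs) held 22.4% of 3707. Without the 3 highest cells of each library the ratio was 2.84. It was 3.16 when every cell had equal weight, and at least 2 in all 12 alternatives tried.

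Macrophage-like cells fell into 2 clusters, which differed in these genes. Cluster 1 led with the complement genes C1qa and C1qb and with Mrc1, and cluster 17 with Chil3 and Ly6c2, which mark inflammatory monocytes. In cluster 1 Spp1 stood at 6464 CPM in 117 LNP-CRISPR cells and 1641 CPM in 137 vehicle cells, a ratio of 3.94 (3.79–4.09). In cluster 17 it stood at 388 CPM in 63 LNP-CRISPR cells and 322 CPM in 65 vehicle cells, a ratio of 1.204 (1.019–1.42). The higher Spp1 level of LNP-CRISPR muscle thus lay mostly in the cluster with C1q genes, though the difference between the clusters was not tested.

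Mmp12, a metalloelastase of macrophages, stood at 117 CPM (105–130) in LNP-CRISPR and 28.4 CPM (22.6–35.2) in vehicle macrophage-like cells, a ratio of 4.11 (3.23–5.30). Few cells held it: 22 of 180 LNP-CRISPR and 12 of 202 vehicle cells had a UMI, and the highest cell held 26.0% and 36.1% of the UMIs. After thinning to 1000 UMIs the ratio was 2.45, and without the 3 highest cells 5.14. By cluster, the ratio was 5.26 (4.01–7.01) in cluster 1 (331 against 63 UMIs) and 0.361 (0.129–0.890) in cluster 17, which rests on 7 LNP-CRISPR and 20 vehicle UMIs.

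Cd9, a tetraspanin of the cell surface, stood just under the limit at 430 CPM (406–454) in LNP-CRISPR and 217 CPM (200.5–235) in vehicle macrophage-like cells. The ratio was 1.98 (1.80–2.18), and 5 of the 12 alternatives put it at 2 or above (2.85 after thinning, 1.74 when cells were named by their own marker score). Both clusters were higher in LNP-CRISPR, by 2.04 (1.83–2.26) in cluster 1 and 1.66 (1.30–2.13) in cluster 17.

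The receptor Trem2 stood at 357 CPM (336–380) in LNP-CRISPR and at 330 CPM (309–351) in vehicle macrophage-like cells, and its ratio of 1.08 (0.992–1.18) includes 1. Gpnmb, a lysosomal membrane glycoprotein, stood at 611 CPM (583–640.4) and 552 CPM (526–580), a ratio of 1.11 (1.03–1.18). The galectin Lgals3 stood at 4096 CPM (4023–4171) in LNP-CRISPR and 3517 CPM (3449–3586) in vehicle, a ratio of 1.16 (1.13–1.196). These 3 ratios lay within 0.880 and 1.21 in every alternative. Fabp5, a fatty-acid binding protein, stood at 1084 CPM (1047–1123) and 1133 CPM (1095–1172), a ratio of 0.957 (0.911–1.01).

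Trem2, Gpnmb and Fabp5 shared a pattern in both libraries: all were several times higher in cluster 1 than in cluster 17. Trem2 stood at 474 and 429 CPM in cluster 1 (LNP-CRISPR and vehicle) and at 51.4 and 76.5 CPM in cluster 17. Gpnmb stood at 803 and 747 CPM in cluster 1 and at 107 and 54.7 CPM in cluster 17. The Gpnmb ratio was 1.07 (1.003–1.15) in cluster 1 and 1.95 (1.34–2.87) in cluster 17, there on 85 and 45 UMIs. In cluster 17 Trem2 had a ratio of 0.672 (0.442–1.01) and Fabp5 one of 0.827 (0.684–0.9997). Lgals3 was nearly even, with 4378 and 3671 CPM in cluster 1 and 3357 and 3124 CPM in cluster 17. Each macrophage-like cell was thinned to 1000 UMIs to see whether the same cells carried Spp1 and Gpnmb: of 176 LNP-CRISPR cells 59 had Spp1, 35 had Gpnmb and 20 had both, and of 201 vehicle cells the counts were 49, 33 and 17.

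**Figure D1:**
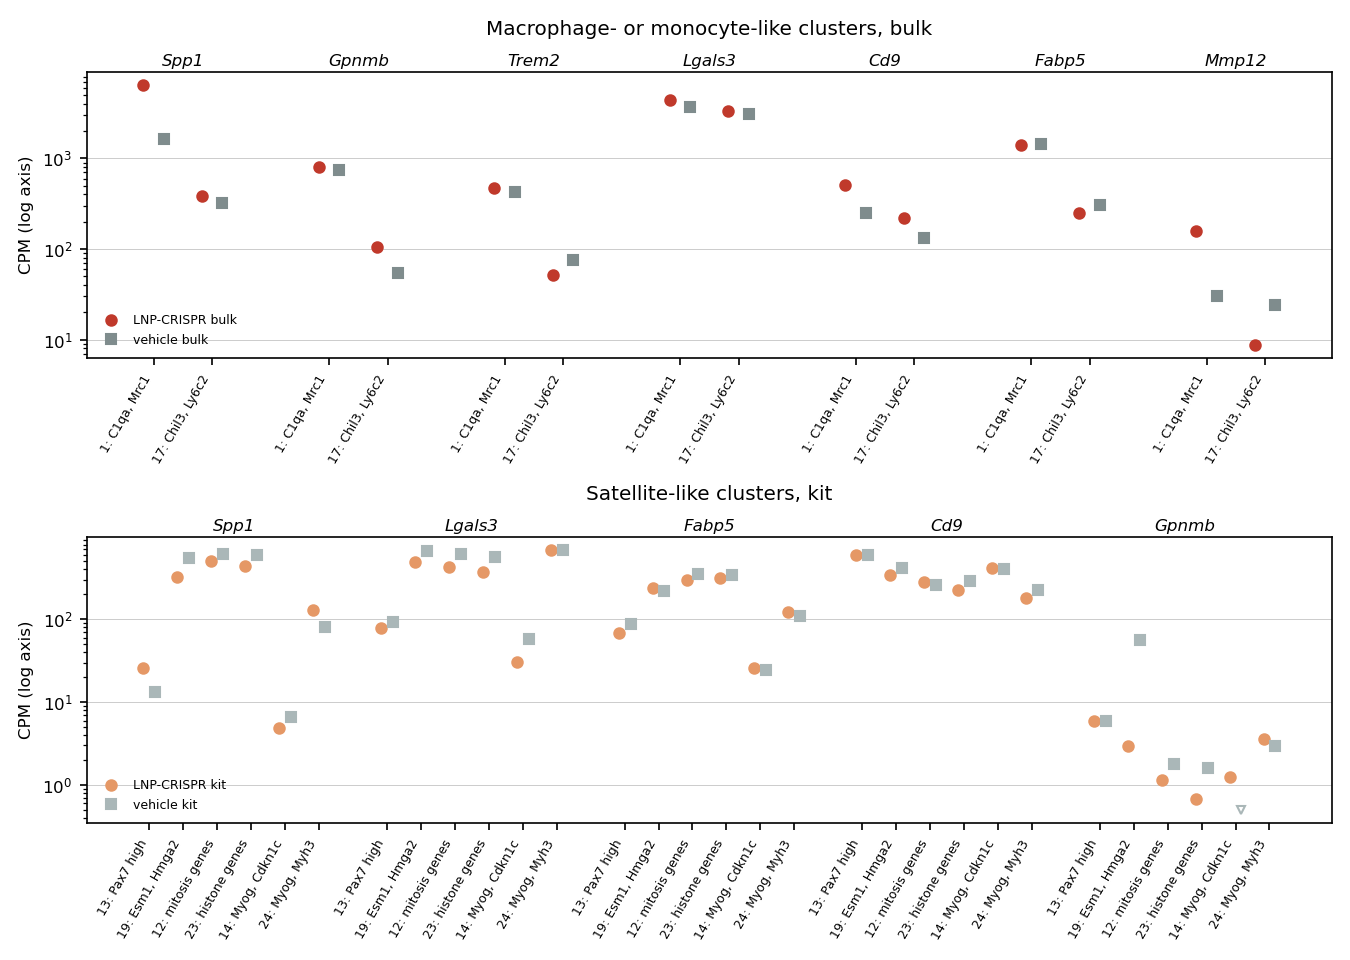
Level (CPM, log axis) of the 7 genes in the macrophage- or monocyte-like clusters of the bulk libraries (top) and of 5 genes in the satellite-like clusters of the kit libraries (bottom), with circles for LNP-CRISPR, squares for vehicle, and open triangles for 0 UMIs. Spp1, Gpnmb, Trem2 and Fabp5 sit far higher in cluster 1 than in cluster 17, and Spp1, Lgals3 and Fabp5 sit far lower in satellite-like clusters 13 and 14 than in clusters 12, 19 and 23.

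The order of classes shows how far each gene is a macrophage gene here. Macrophage-like cells made up 15.7% of LNP-CRISPR and 16.8% of vehicle bulk cells and held 93.7% and 92.2% of the bulk Trem2 UMIs and 86.3% and 74.5% of the Gpnmb UMIs. They held 70.3% and 72.1% of Fabp5, 69.5% and 54.5% of Lgals3, 88.6% and 33.9% of Spp1, and 58.8% and 20.8% of Mmp12, but only 10.2% and 4.31% of Cd9. Most bulk Cd9 UMIs thus lay in other classes, but these shares do not bear on whether Cd9 marks a state of macrophages. Among macrophage-like cells Cd9 was higher in cluster 1, at 510 and 250 CPM (LNP-CRISPR and vehicle), than in cluster 17, at 220 and 132 CPM. The kit libraries, with 1 macrophage-like cell each, give no such values. Some of the bulk shares depend on few cells. Of 10937 vehicle Spp1 UMIs, 2 FAP-like cells held 2477 and 1291 and 1 satellite-like cell 1044. Of the Mmp12 UMIs, 1 dendritic-like cell held 171 of 575 in LNP-CRISPR and 1 held 149 of 399 in vehicle.

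**Figure D2:**
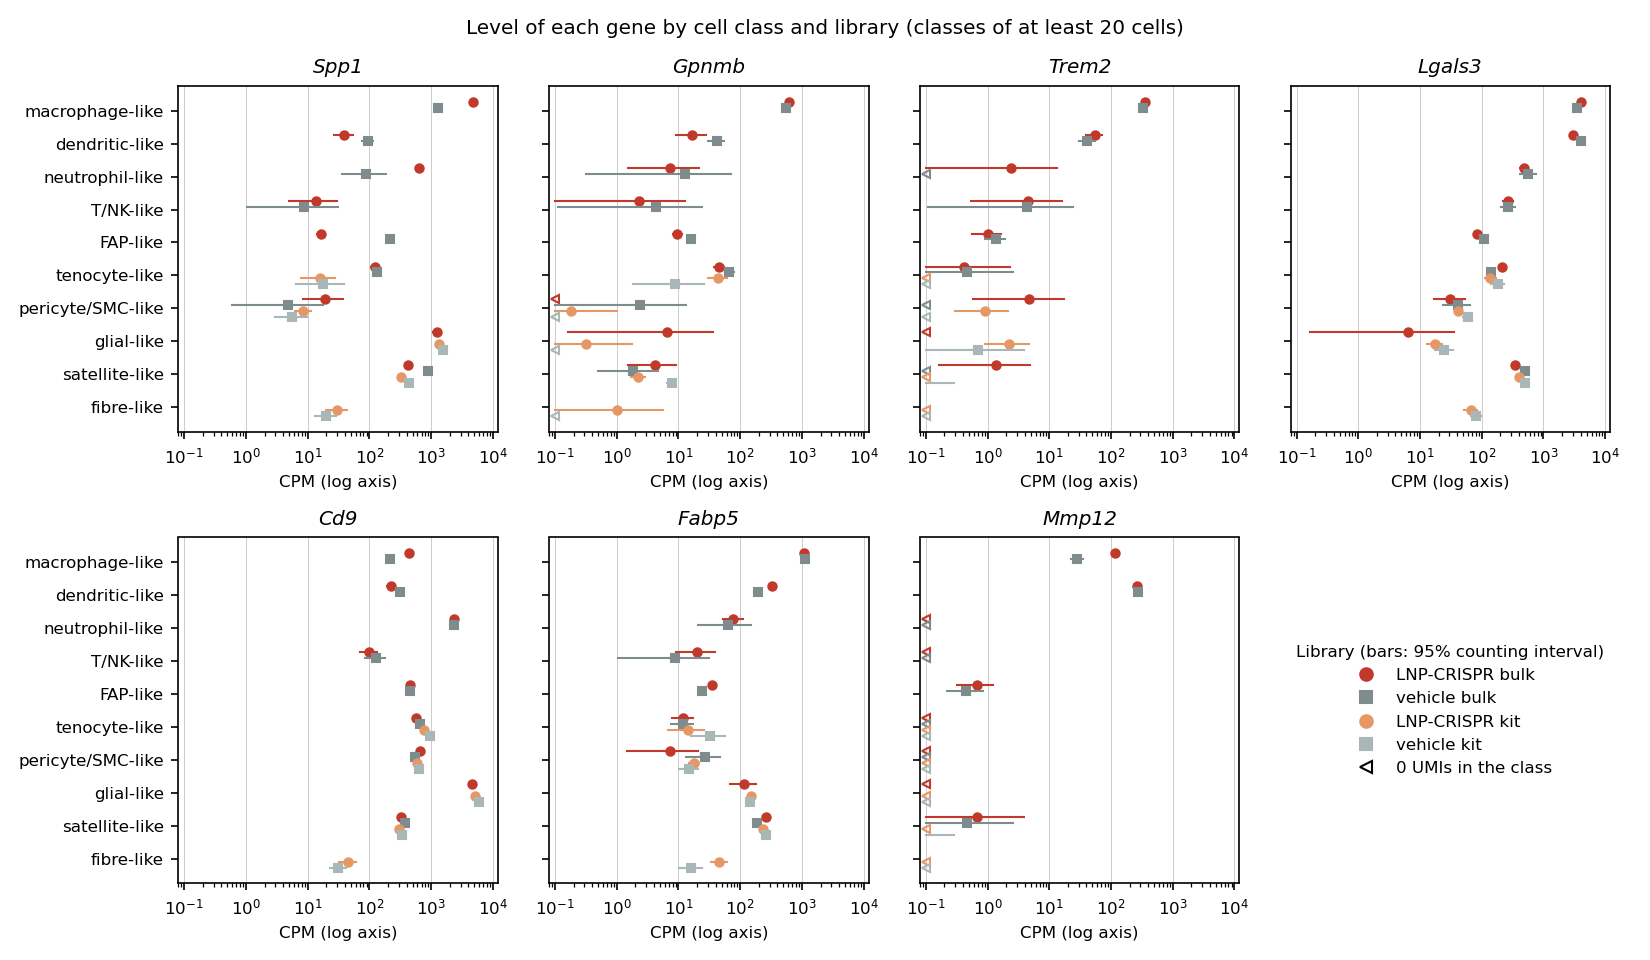
Level (CPM, log axis) of each gene in every class of at least 20 cells, by library, with bars for 95% counting intervals and open triangles for classes with 0 UMIs. Trem2 and Mmp12 stand out in macrophage- and dendritic-like cells, Cd9 in glial- and neutrophil-like cells, and Spp1 in macrophage-, glial- and satellite-like cells.

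Trem2 was second highest in dendritic-like cells, at 54.3 CPM (39.7–72.4) in LNP-CRISPR and 41.3 CPM (30.2–55.1) in vehicle. The remaining bulk classes lay at 4.78 CPM or below, with overlapping intervals. In the kit libraries 12 and 3 Trem2 UMIs were counted in all, and satellite-like cells held 0 and 1, which for the LNP-CRISPR library allows up to 0.117 CPM (3 counts).

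Summed over cells, Mmp12 was higher in dendritic-like than in macrophage-like cells of both libraries. It stood at 266 CPM (232–303) in 59 LNP-CRISPR dendritic-like cells and 274 CPM (244–307) in 58 vehicle ones. A single LNP-CRISPR cell held 171 of the 225 UMIs and a single vehicle cell 149 of 305. In LNP-CRISPR the order of the 2 classes rests on that 1 cell and is not kept without it. That LNP-CRISPR cell had macrophage markers at 23537 CPM, above the 14869 CPM of macrophage-like cells as a class. The ratio of LNP-CRISPR to vehicle, 0.969 (0.812–1.16), ran from 0.470 without the highest cell to 2.29 with equal weights, so no direction can be given. Macrophage markers summed to 4421 CPM (8 of 9 detected, Ms4a7 at 0) and 3023 CPM (9 of 9) in these dendritic-like cells, and their part in the Mmp12 and Trem2 levels was not tested. Tenocyte-, pericyte-, neutrophil- and T or NK-like cells of the bulk libraries held 0 Mmp12 UMIs.

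Gpnmb followed in tenocyte-like cells, which resemble tendon cells, at 45.4 CPM (37.4–54.7) in LNP-CRISPR and 66.6 CPM (56.0–78.5) in vehicle, a ratio of 0.682 (0.527–0.881). No single tenocyte-like cell held more than 14 of these 111 and 141 UMIs. Macrophage markers summed to 31.9 CPM (8 of 9 detected, Fcgr1 at 0) and 30.2 CPM (9 of 9) in tenocyte-like cells, while Trem2 gave 1 UMI in each. Cells resembling fibro-adipogenic progenitors (FAPs, the matrix-making stromal cells of muscle) held less Gpnmb, 9.51 CPM (8.003–11.2) and 15.8 CPM (14.2–17.6), a ratio of 0.5999 (0.490–0.732). This class ratio mixes clusters held in unlike numbers (143 LNP-CRISPR against 311 vehicle cells in cluster 3). The Gpnmb ratio was 0.874 (0.654–1.16) in FAP-like cluster 2 and 0.564 (0.407–0.769) in cluster 3. With equal weight per cell it was 0.845 for the class. Glial-, pericyte- and fibre-like cells of the kit libraries held 0 or 1 Gpnmb UMI each.

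Lgals3 was shared by dendritic-like cells, at 3018 CPM (2902–3137) in LNP-CRISPR and 4107 CPM (3989–4228) in vehicle, with a ratio of 0.735 (0.700–0.771) that turned to 1.21 with equal weight per cell. Neutrophil-like cells followed at 476 CPM (412–548) and 570.1 CPM (416–763), whose intervals overlap. In tenocyte-like cells Lgals3 stood at 215 CPM (197–234) in LNP-CRISPR and 143 CPM (127–160.1) in vehicle, a ratio of 1.502 (1.30–1.74). A single vehicle cell held 91 of the 303 vehicle UMIs, and leaving out the highest cell gave 1.97 and leaving out the 3 highest 2.31, past the 2-fold limit. Lgals3 was lowest in glial-like cells, at 17.4 CPM (13.1–22.7) and 24.9 CPM (17.4–34.4) in the kit libraries.

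Cd9 had another order. It was highest in glial-like cells, at 5153 CPM (5073–5233) in 428 LNP-CRISPR kit cells and 5950.4 CPM (5825–6077) in 252 vehicle kit cells. The ratio was 0.866 (0.844–0.889). Neutrophil-like cells came next at 2376 CPM (2230–2529) in LNP-CRISPR bulk and 2306 CPM (1983–2666) in vehicle bulk. Tenocyte-, pericyte- and FAP-like cells lay between 446 and 973 CPM over the 4 libraries, and fibre-like cells were lowest at 44.7 CPM (32.6–59.8) and 31.4 CPM (22.7–42.3).

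Among the named classes of both kit libraries osteopontin was highest in glial-like cells, at 1354 CPM (1313–1396) in LNP-CRISPR and 1555 CPM (1492–1621) in vehicle, a ratio of 0.870 (0.827–0.917). Its highest cells held only 4.61% and 9.59% of the class's 4204 and 2252 UMIs. Without the 3 highest cells the ratio was 0.988. Of the 9 macrophage markers 8 were at 0 in both libraries, leaving a summed level of 0.644 and 0.691 CPM. The 22 glial-like cells of LNP-CRISPR bulk held 1231 CPM (1062–1418).

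In neutrophil-like cells 267 Spp1 UMIs were counted among 155 LNP-CRISPR cells (645 CPM, 570.3–728) and 7 among 33 vehicle cells (88.7 CPM, 35.7–183). The vehicle library had too few of these cells for a comparison by the rule of 50 cells. The highest LNP-CRISPR cell held 66 of the 267 UMIs. Macrophage markers summed to 1467 CPM (7 of 9 detected) and 621 CPM (6 of 9) in neutrophil-like cells, and their part in this was not tested.

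The summed Spp1 level of FAP-like cells went the other way from that of macrophage-like cells. It stood at 16.3 CPM (14.3–18.5) in 430 LNP-CRISPR cells and at 212 CPM (206–218) in 644 vehicle cells. The ratio of 0.0769 (0.0673–0.0875) rests on few cells, since 2 vehicle cells with 2477 and 1291 UMIs held 80.4% of the 4688 UMIs of the class. The highest of them had 1953 UMIs of Col1a1, which makes collagen, 1 UMI of all macrophage markers and 0 of the leukocyte gene Ptprc. Without the 3 highest cells of each library the ratio was 0.303, and with equal weight per cell 0.238. The 10 highest vehicle cells held 4562 of the 4688 UMIs, and the 10 highest LNP-CRISPR cells 127 of 242. The lower sum is therefore not read as a lower level in most FAP-like cells.

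The clusters of FAP-like cells did not share a direction. In the dividing cluster 11 Spp1 stood at 25.7 CPM in 33 LNP-CRISPR cells and 1155 CPM in 47 vehicle cells, which include the 2 vehicle cells named above. In cluster 2 the ratio was 0.179 (0.144–0.220), on 104 LNP-CRISPR and 765 vehicle UMIs. As 10 vehicle cells held 4562 of the 4688 UMIs of the class, most of these 765 also lay in few cells. In cluster 3 the ratio was 3.49 (2.34–5.24), on 70 LNP-CRISPR UMIs, 30 of them in 1 cell, and 42 vehicle UMIs. At least 1 Spp1 UMI was seen in 25.6% of LNP-CRISPR and 15.4% of vehicle FAP-like cells (median depths 29619 and 29505.5), against 29.2% and 7.69% of pericyte- or smooth muscle-like cells (18370.5 and 16603 UMIs), so these shares are not read as a difference.

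**Figure D3:**
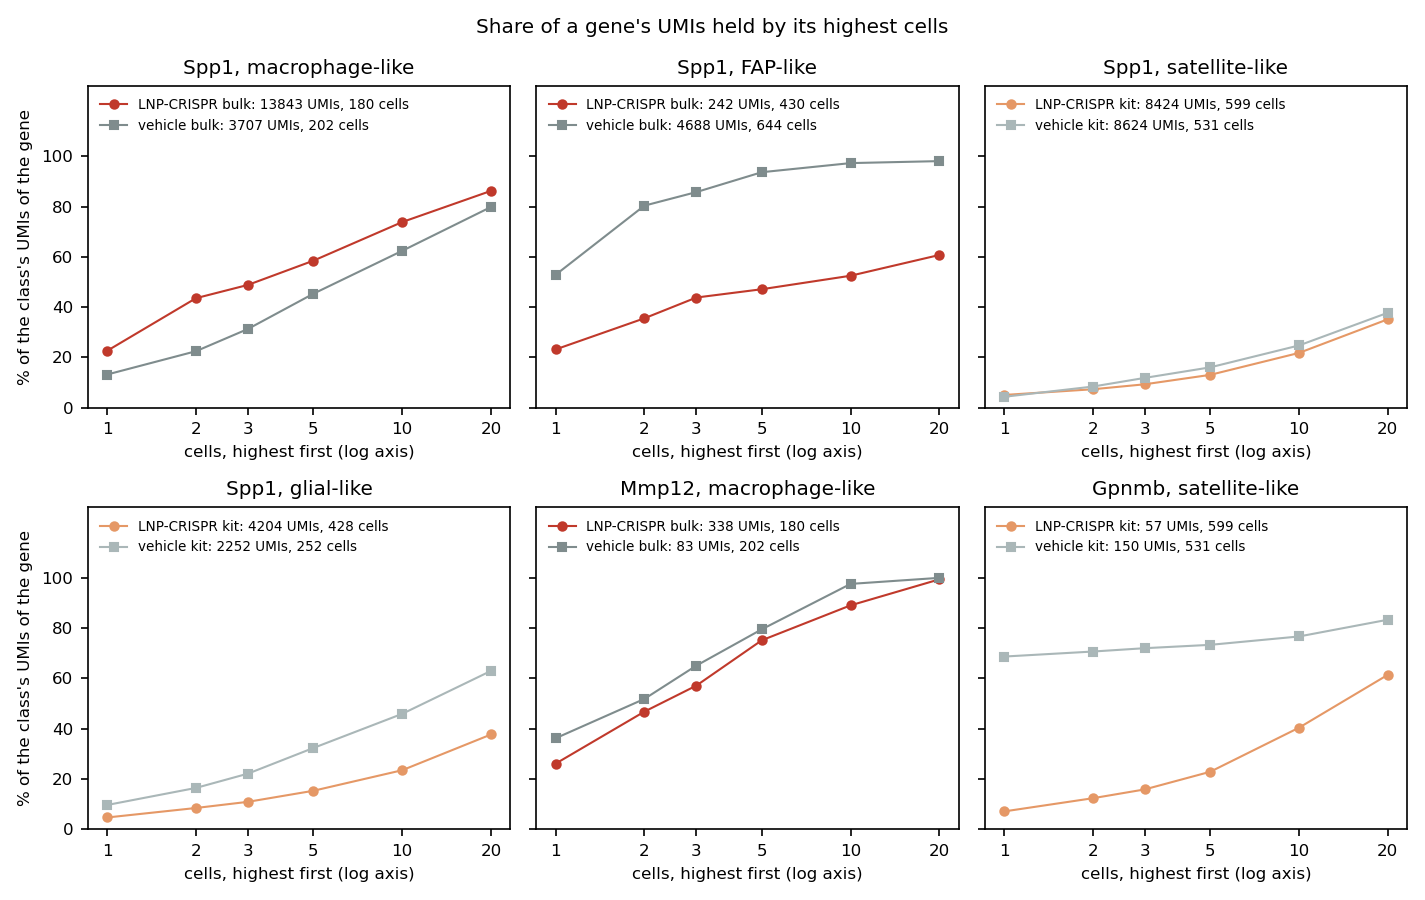
Cumulative share of a gene's UMIs (percent, vertical axis) held by the 1 to 20 highest cells of a class (log axis), with circles for LNP-CRISPR and squares for vehicle. A single cell holds 52.8% of Spp1 in FAP-like cells of vehicle bulk and 68.7% of Gpnmb in satellite-like cells of vehicle kit. In satellite-like cells of the kit libraries no cell holds more than 5.02% of Spp1.

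Over the 4 bulk classes with at least 50 cells in both libraries, 26 of 28 pairs of gene and class had at least 20 UMIs. Of these 2 were at least 2-fold higher, both in macrophage-like cells (2.15% of all genes and classes), and 3 at least 2-fold lower (2.73% of all). In FAP-like cells, 1.59% of 13665 genes were higher and 2.36% lower by these limits, in dendritic-like cells 3.65% and 4.35% of 6843, and in tenocyte-like cells, where none of 5 measured genes passed, 2.18% and 2.66% of 9691. The other 2 lower pairs were Spp1 and Gpnmb in dendritic-like cells. There Spp1 stood at 38.9 CPM (26.8–54.7) and 94.3 CPM (77.1–114), and 1 vehicle cell held 49 of its 105 vehicle UMIs. Gpnmb stood at 16.5 CPM (9.03–27.7) and 41.3 CPM (30.2–55.1), with 12 of 14 LNP-CRISPR UMIs in 1 cell and 38 of 46 vehicle UMIs in 1 cell. Its ratio of 0.3998 (0.203–0.740) became 0.985 at Leiden resolution 2.0, 0.856 with the stricter cell filter and 0.839 with called doublets kept. The Spp1 ratio of 0.413 (0.270–0.616) reversed to 1.38 with equal weight per cell.

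**Figure D4:**
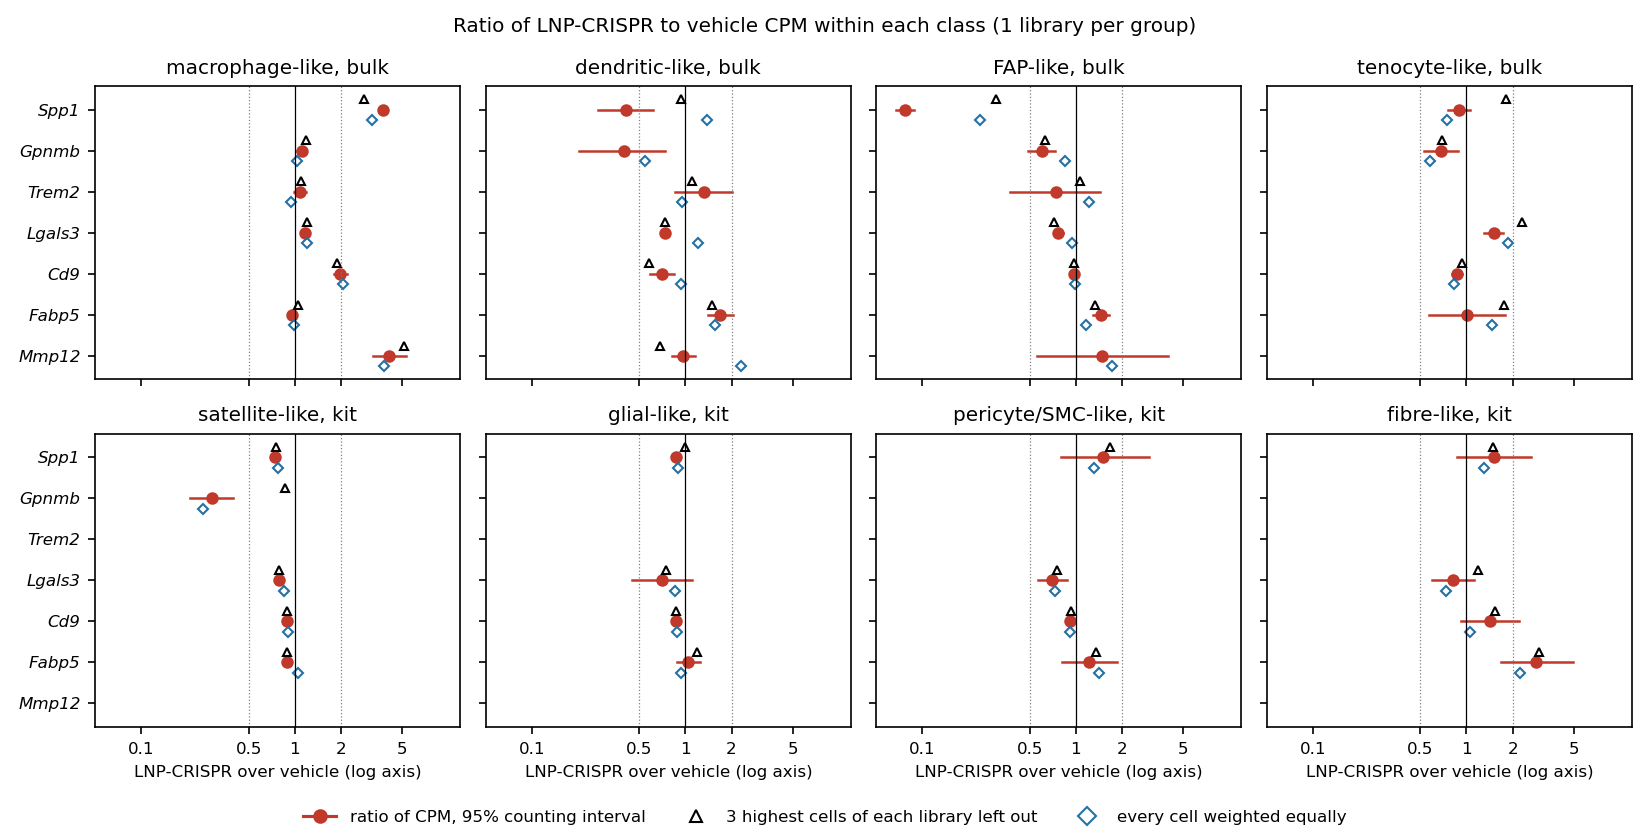
Ratio of LNP-CRISPR to vehicle CPM (log axis) for the genes with at least 20 UMIs in each of 8 compared classes, with circles and bars for the ratio and its 95% counting interval, triangles for the ratio without the 3 highest cells and diamonds for equal weight per cell. Spp1 and Mmp12 of macrophage-like cells lie beyond 2 on every symbol, Spp1 of FAP-like cells lies below 0.5 on every symbol, and most other ratios lie near 1.

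The kit libraries gave 599 LNP-CRISPR and 531 vehicle satellite-like cells, in which the summed levels of Spp1, Lgals3, Cd9 and Fabp5 were lower in LNP-CRISPR. Spp1 stood at 328 CPM (321–335) in LNP-CRISPR and 443 CPM (434–453) in vehicle, a ratio of 0.739 (0.717–0.762). Lgals3 stood at 403 CPM (395–411) and 509 CPM (499–519.5), a ratio of 0.791 (0.770–0.813). Fabp5 and Cd9 had ratios of 0.883 (0.850–0.916) and 0.893 (0.864–0.923). These class ratios mix clusters held in unlike numbers (82 against 48 cells in cluster 19, 48 against 24 in cluster 24). Within clusters, Cd9 had a ratio of 1.08 (1.002–1.16) in cluster 12, and Spp1 one of 1.98 (1.32–3.03) in cluster 13, on 79 and 36 UMIs. None of the 4 class ratios passed the 2-fold limit, and Fabp5 turned to 1.05 with equal weight per cell and 1.32 after thinning. In all 5 of the 7 genes had at least 20 UMIs there, 0 at least 2-fold higher and 1 (Gpnmb) at least 2-fold lower, where 1.22% and 1.44% of 13398 genes were past these limits. Macrophage markers summed to 0.272 and 0.206 CPM in these cells, with 7 of 9 at 0.

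Within the satellite-like class, Spp1 differed far more between clusters than between the libraries. Cluster 13 led with Pax7, Calcr and Myf5, which mark quiescent or early satellite cells, clusters 12 and 23 with genes of mitosis and histones, cluster 19 with Hmga2 and Esm1, and clusters 14 and 24 with Myog, which drives differentiation. Spp1 stood at 26.1 and 13.2 CPM in cluster 13 (LNP-CRISPR and vehicle), and at 505 and 608 CPM in cluster 12. It was 445 and 601 CPM in cluster 23 and 324 and 557 CPM in cluster 19, then 4.94 and 6.69 CPM in cluster 14 and 130.2 and 81.5 CPM in cluster 24. In both libraries clusters 12, 19 and 23 were thus high and clusters 13 and 14 low. Cluster 19 passed the markers Pax7 and Myf5 as cluster 13 did, and its leading genes were not those of cell division. Median depth followed it in part, with 13158.5 and 12510.5 UMIs per cell in cluster 13 and 54321.5 and 76951.5 in cluster 12, and the part of depth was not tested.

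Lgals3 and Fabp5 had nearly the same split. Lgals3 stood at 79.4 and 94.0 CPM in cluster 13 and at 424 and 610.5 CPM in cluster 12, but unlike Spp1 it was also high in cluster 24, which expresses the embryonic myosin Myh3, at 680.2 and 685 CPM. Fabp5 stood at 68.8 and 86.7 CPM in cluster 13 and at 302 and 355 CPM in cluster 12. Cd9 ran the other way, at 601 and 599 CPM in cluster 13 and 279 and 259 CPM in cluster 12. In the few satellite-like cells of the bulk libraries (36 and 43) Spp1 stood at 426 CPM (393–461) and 901 CPM (862–942), and 1 vehicle cell held 1044 of 1954 UMIs.

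Of 28 pairs of gene and class in the kit libraries 17 had at least 20 UMIs, 1 was at least 2-fold higher (3.34% of all genes and classes) and 1 at least 2-fold lower (1.61% of all). The higher one was Fabp5 in fibre-like cells, at 45.7 CPM (33.4–60.9) and 16.1 CPM (10.1–24.3), a ratio of 2.84 (1.68–4.96) in a class where 12.8% of 5216 genes were at least 2-fold higher. At least 2-fold lower there were 1.44%. After thinning it was 1.45, and 1.41 when cells were named by their own marker score. The lower one was Gpnmb in satellite-like cells, where 57 LNP-CRISPR and 150 vehicle UMIs gave 0.287 (0.208–0.392). A single vehicle cell held 103 of the 150, and without the highest cells the ratio was 0.856. Of 4 measured genes each in glial-like and in pericyte- or smooth muscle-like cells none passed 2-fold, where 2.51% of 9889 genes were higher and 99 genes lower in glial-like cells, and 2.06% and 2.53% of 9929 were higher and lower in pericyte- or smooth muscle-like cells. In pericyte- or smooth muscle-like cells (303 and 141) the Spp1 level of 8.43 CPM (6.17–11.2) and 5.64 CPM (3.001–9.64) was the lowest of the kit classes.

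The partners of these genes in macrophage-like cells of the bulk libraries moved little. Of 10 osteopontin receptor genes 7 had at least 20 UMIs, and 0 of them were past 2-fold in either direction (median log2 ratio 0.01). Cd44 stood at 1431 and 1298 CPM in LNP-CRISPR and vehicle (ratio 1.10), the integrin Itgb1 at 321 and 347 CPM (0.926) and Itgav at 168 and 126 CPM (1.34). Of 7 genes of Trem2 signalling all were measured and 0 passed 2-fold (median 0.01). The adaptor Tyrobp stood at 1707 and 1590.1 CPM (1.07), the kinase Syk at 330 and 303 CPM (1.09) and the phosphatase Inpp5d at 154 and 158 CPM (0.971).

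Of 20 further lipid-associated macrophage genes, all 20 were measured and 0 passed 2-fold either way, with 15 ratios above 1 and a median log2 ratio of 0.16. Those with most UMIs were Apoe at 8808 and 9969 CPM (0.883), Ctsb at 6635 and 5631 CPM (1.18) and Psap at 5106 and 4589 CPM (1.11), which carry lipid or serve the lysosome. Of 12 genes listed under cholesterol and lipid handling 2 were at least 2-fold higher, where 1.86% of all tested genes were. The first was Acp5, a lysosomal phosphatase rather than a lipid-handling gene, at 118 and 45.2 CPM (2.62, 2.14–3.23). The other was the sterol receptor Nr1h3 at 30.1 and 14.4 CPM (2.09, 1.43–3.10). The list's median was 0.15, and its members with most UMIs were Npc2 at 1148 and 1076 CPM (1.07), Msr1 at 425 and 428 CPM (0.992) and Abca1 at 382 and 272 CPM (1.41). The MITF and TFE factors, which switch on lysosomal genes, had 4 of 4 measured, 0 past 2-fold and a median of 0.12. Mitf stood at 74.4 and 65.4 CPM (1.14), Tfe3 at 72.6 and 69.8 CPM (1.04) and Tfec at 26.6 and 33.9 CPM (0.786).

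Genes of resident-type macrophages lay mostly on the other side. Of 10 genes 9 had at least 20 UMIs, with 0 at least 2-fold higher, 3 at least 2-fold lower and 1 above 1, and the median log2 ratio was -0.77, against -0.04 for all tested genes, of which 2.16% were at least 2-fold lower. The list's median was also below 0 in FAP-like cells (-0.41, 6 genes measured) and in satellite-like cells of the kit libraries (-0.54, 3 genes measured). In dendritic-like cells it was above 0 (0.31, 5 genes measured). Tenocyte-, glial-, pericyte- and fibre-like cells, with 2 or 3 genes measured, lay at -0.25, -0.11, -0.03 and -0.06. The scavenger receptor Cd163 stood at 8.99 and 27.7 CPM (0.324, 0.200–0.510) and the growth-arrest ligand Gas6 at 49.8 and 106 CPM (0.468, 0.381–0.572). Lyve1, named after its values were seen, had 12 and 42 UMIs (0.289, 0.138–0.559). Among the members with most UMIs, Selenop at 1381 and 2360.03 CPM (0.585) and the mannose receptor Mrc1 at 434 and 729 CPM (0.596) were lower too, while the transglutaminase F13a1 stood at 560.4 and 603 CPM (0.930).

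Among 25 family relatives (other SIBLING, TREM, galectin, tetraspanin, FABP and MMP genes) 13 were measured in macrophage-like cells and 0 passed 2-fold either way (median log2 ratio 0.15). Ibsp, Dmp1, Mepe and Dspp, which with Spp1 make up the SIBLING family of bone matrix proteins, had 0 UMIs there. The relatives with most UMIs were the tetraspanin Cd53 at 837 and 698 CPM (1.199), and Lgals3bp at 149 and 136 CPM (1.09) and Lgals9 at 121 and 129 CPM (0.941).

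Likeness of pattern was measured as Pearson's r of log2(CPM + 1) over the 21 sums of class and library with at least 50 cells, among 10678 genes, and these points share libraries and differ in depth. Nearest to Spp1 were Npl (0.83), Comtd1 (0.82) and Galc (0.77), and to Gpnmb they were Tmem86a (0.91), Pla2g15 (0.91) and Hacd4 (0.91). Trem2 was closest to Clec4a1 (0.98), Aif1 (0.98) and Ms4a6d (0.98), and Mmp12 to Clec10a (0.98), Tnip3 (0.97) and Cd180 (0.96). For Lgals3 they were Arl4c (0.89), Sem1 (0.89) and Tbxas1 (0.88), for Fabp5 Ube2l3 (0.86), Bri3 (0.86) and Tcirg1 (0.85), and for Cd9 Egr2 (0.88), Ubxn4 (0.87) and Gm47644 (0.86). Among the 7 genes themselves the closest pair was Trem2 and Mmp12 (0.88), followed by Lgals3 and Mmp12 (0.79), while Cd9 ran at 0.45 with Spp1 and below 0.05 with the others.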

How the data were processed

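Single-cell RNA was sequenced by the 10x 3′ v3.1 method, as stated per the labels. Each deposited table holds UMI counts, unnormalized, for every gene in every barcode. Cell Ranger 7.0.1 and mm10 are named in the submitters' processing notes, whereas the matrices name cellranger 5.0.1, per the file headers. The 7 genes and all gene lists were chosen with earlier results of these data known.

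Barcodes under 200 genes or over 20% mitochondrial UMIs were dropped (165, 101, 300 and 272 removed from LNP-CRISPR bulk, vehicle bulk, LNP-CRISPR kit and vehicle kit). Scrublet, run through scanpy 1.11.5, called 3, 5, 8 and 7 doublets, so doublets are largely still present. The 5651 cells, of 6512 barcodes, had medians of 16042, 22270, 10312 and 8627 UMIs and were clustered together (2000 variable genes without the 7, 30 components, Leiden resolution 1.0). Clusters were named from fixed markers (at least 3), and 3 of 25 stayed unnamed and were not compared. Classes with at least 50 cells in both libraries were compared, for genes with at least 20 UMIs. Ratios have exact conditional binomial intervals, levels exact Poisson and shares exact binomial ones. The ratio step was run on simulated counts with known folds and counting noise only. That simulation does not cover the uneven spread of UMIs between cells. The genes named from lists are the 3 with most UMIs in bulk macrophage-like cells and those past 2-fold with at least 100 UMIs; likeness names the 3 nearest genes with at least 500 UMIs. Motifs were searched in RefSeq promoters, and gene positions come from GENCODE M21.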

Additional observations from a re-analysis of the deposited data

Results flagged for a closer look

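The summed level of osteopontin RNA moved in opposite directions in different cell classes of the same bulk libraries. Spp1 had a ratio of LNP-CRISPR to vehicle of 3.77 in macrophage- or monocyte-like cells, 0.0769 in FAP-like cells and 0.413 in dendritic-like cells. The difference between the classes was not tested, as each treatment had 1 library. In FAP-like cells 2 vehicle cells held 80.4% of the vehicle UMIs and the 10 highest 97.3%, so the lower sum rests on few cells. The ratio there without the 3 highest cells of each library was 0.303. FAP-like cluster 3 went the other way from its class, at 3.49 (2.34–5.24). In dendritic-like cells the ratio was 0.943 without the 3 highest cells and 1.38 with equal weight per cell, on 33 LNP-CRISPR and 105 vehicle UMIs in all.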

How the results depend on the processing

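The alternatives were 11 planned settings and 1 added after seeing the data, the 3 highest cells left out. Spp1 and Mmp12 of macrophage-like cells stayed at least 2-fold higher in all 12 (2.79 to 4.22 and 2.45 to 5.14). Spp1 of FAP-like cells stayed at least 2-fold lower in all 12 (0.0767 to 0.303), but none left out more than the 3 highest cells. The 10 highest FAP-like cells held 97.3% of the vehicle and 52.5% of the LNP-CRISPR Spp1 UMIs of that class. Cd9 of macrophage-like cells ran from 1.74 to 2.85. In bulk, the count of pairs at least 2-fold higher was 2, and became 5 with the stricter filter (500 genes, 10% mitochondrial UMIs), 4 with equal weight per cell and 5 after thinning. The bulk count at least 2-fold lower was 3, and became 1 with the stricter filter, with called doublets kept, with equal weight, after thinning and without the 3 highest cells. In the kit libraries the count at least 2-fold higher was 1, and became 2 with the stricter filter, with doublets kept, after thinning and with no minimum count, and the count at least 2-fold lower was 1, and became 0 without the highest cell or the 3 highest. Spp1 in dendritic-like cells reversed to 1.38 with equal weight. The cause of these changes was not tested, except that fewer cells enter when the highest are left out. Pairs with 0 UMIs in a library gave no ratio, and naming by marker score left no dendritic-like comparison. Clusters and values of new clusterings were compared by class name only. No paired analysis was possible because each group had 1 library. Trem2 had at most 30 UMIs, and Mmp12 at most 10, per library in each class other than macrophage- and dendritic-like cells. Their values there rest on few counts.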

Other observations

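Barcodes removed by the filter also held these genes: in the bulk libraries 66 and 43 Spp1 UMIs (LNP-CRISPR and vehicle) and in the kit libraries 508 and 479. Cluster 15 of the kit libraries, unnamed and shallow (medians of 694 and 802 UMIs per cell), held Lgals3 at 694 CPM (601–797) in 164 LNP-CRISPR cells and 292 CPM (224–374) in 137 vehicle cells, and Spp1 at 437 CPM (364–521) and 348 CPM (274–437). Markers of red blood cells summed to 39902 CPM (5 of 5 detected) in these LNP-CRISPR cells and 70.6 CPM (4 of 5, Alas2 at 0) in these vehicle cells, and their part in the levels was not tested.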
